A study of Sus scrofa with 18 samples.

Results

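TTPA encodes the alpha-tocopherol transfer protein, and the array measured it with 2 of its 27558 probe sets, 15279078 and 15279082, both annotated to the porcine gene with Entrez identifier 100152248. The members are all probe sets annotated to that gene, and each was followed on its own over 6 time points. The gene was chosen on its measured log2 signals at all 6 times, since its probe sets gave different time courses, so their levels, changes and disagreement are described here with no test. The cells were LLC-PK1, a kidney epithelial line from a male Hampshire pig, kept beyond confluence and then exposed to all-trans retinoic acid (ATRA), the form of vitamin A that activates the retinoic acid receptors; the dose and any vehicle are not given in the sources used here. Total RNA was taken at 0, 0.5, 1, 4, 8 and 12 h, with 3 arrays labelled as biological replicates at each time, 18 arrays in all. All groups came from this 1 line and differed, per the labels, in the time with ATRA alone. The 0 h arrays were the control for every later time, so time in culture and treatment cannot be told apart.

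The alpha-tocopherol transfer protein is a small cytosolic protein of the CRAL-TRIO family, whose members carry a hydrophobic ligand in a closed pocket. It picks alpha-tocopherol, the main form of vitamin E in the body, out of the endosomal pool and delivers it to the plasma membrane, where it exchanges it for phosphoinositides and ABCA1 passes it on to lipoproteins. The liver is its best known site, and loss of the gene causes ataxia with vitamin E deficiency. In the RefSeq annotation of the pig assembly Sscrofa 11.1, TTPA has 2 transcript models and 2 protein models. Its nearest neighbours there are GGH on one side and, on the other, LOC106510071, a non-coding locus that overlaps TTPA and lies between it and YTHDF3. The positions of the probes are not given in the sources used here, so whether either probe set reaches into the overlapping locus was not tested.

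Array medians lay between 5.59 and 5.67 on the log2 scale, and signals of replicates correlated at 0.982 to 0.995 across probe sets. Of 16 listed markers of proximal tubule and kidney epithelium, 12 were measured and all 12 lay above the array median on every 0 h array, among them the endocytic receptor LRP2 and the glucose transporter SLC5A2. Of 6 measured hepatocyte markers 5 lay below the array median on all 18 arrays, with albumin (ALB) at a mean log2 signal of 2.73 at 0 h and the fibrinogen chain FGA at 2.51; APOA1 was above it. None of those 6 passed the test at any time in limma, and 1 had an unadjusted p under 0.05, at 4 h. Their mean log2 signal stayed between 4.27 and 4.61 over all arrays. All 3 measured endothelial markers, 2 of 4 leukocyte markers and 3 of 5 fibroblast markers were also below the array median on all 18 arrays. The leukocyte marker CD3E and the fibroblast markers COL1A1 and COL1A2 lay above it on all 18. Their means at 0 h were 7.85, 6.26 and 11.86. CD14 lay above it on 3 arrays. Of the tubule and kidney markers 1 was called higher and 3 lower at 4 h, 1 and 4 at 8 h, and 2 and 2 at 12 h, by the limma test described with the gene lists, and the F test called 7 of 12. The shares of all named genes were 7.89% and 8.53%, 4.33% and 3.58%, and 1.52% and 1.75% at those times, and 19.2% in the F test. SLC34A1, a sodium-phosphate cotransporter, and SLC5A2 were lower at all 3 times, and GGT1 was lower at 8 h (-0.38 ± 0.09, limma adjusted p = 0.0206). KRT8 was the marker called higher at 4 h (0.49 ± 0.11, adjusted p = 0.00787), and it was called again at 12 h (0.47 ± 0.11, 0.0367). LRP2 and HNF4A are described with the lists they also belong to. For the fibroblast marker COL1A1, the probe set with the highest mean rose by 0.93 ± 0.18 at 4 h (limma adjusted p = 0.00245). The 4 h changes of the probe sets of COL1A1 differed by 0.81, and only the value of this probe set is given here. No endothelial or leukocyte marker was called, with 1 at an unadjusted p under 0.05 at 4 h and 1 at 12 h. The part of these shifts in the changes of TTPA was not tested.

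Probe set 15279078 had a mean signal that was higher at each later time with ATRA. The rise of this mean from 1 to 4 h rested on replicate 1 of 4 h. The log2 signal of the probe set at 0 h was 4.78, 4.44 and 3.95 in replicates 1, 2 and 3 (mean 4.39 ± 0.42 SD, n = 3). At 0.5 h it was 4.94, 4.76 and 4.48 (4.73 ± 0.23), a range that overlaps the one at 0 h. At 1 h the arrays read 6.21, 5.62 and 5.09 (5.64 ± 0.56). From this time on, all 12 arrays lay above the highest array at 0 h.

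At 4 h the same probe set read 6.98, 5.42 and 5.34 (5.91 ± 0.92), a spread set by replicate 1, with replicates 2 and 3 inside the range of the 1 h arrays. At 8 h the values were 7.52, 7.01 and 6.82 (7.11 ± 0.36), and at 12 h 7.71, 7.46 and 7.19 (7.45 ± 0.26). In the order of the means, 0 and 0.5 h, 1 and 4 h, 4 and 8 h, and 8 and 12 h overlapped in their ranges, while 0.5 and 1 h did not. Where the probe set stood among all probe sets of an array moved with it. It lay between percentiles 27.8 and 39.8 at 0 h and between percentiles 68.0 and 74.1 at 12 h, so it went from a dim signal to one above the array median.

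**Figure D1:**
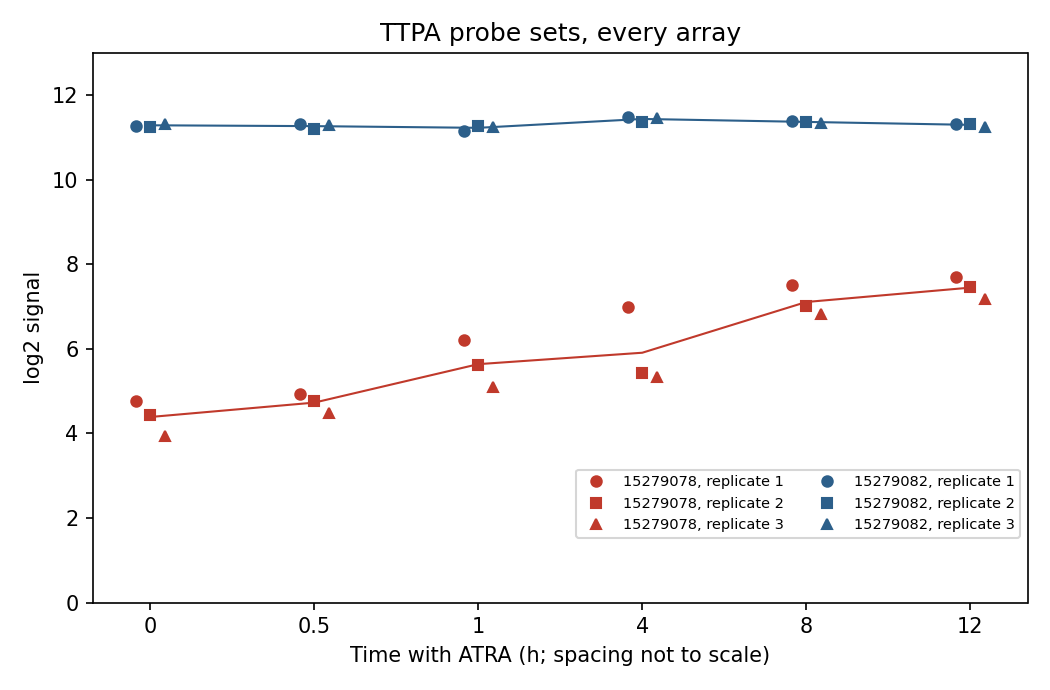
Log2 signal of the TTPA probe sets 15279078 (red) and 15279082 (blue) on every array, by hours with ATRA (positions not to scale); symbols mark the replicate number and lines join the means of 3 arrays. The red points go from 3.95 to 4.78 at 0 h to 7.19 to 7.71 at 12 h, while all 18 blue points lie between 11.16 and 11.49.

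Probe set 15279082 gave a bright and nearly flat signal. Over all 18 arrays it ran from 11.16 to 11.49, a range of 0.33, against 3.76 for 15279078. At 0 h it read 11.27, 11.26 and 11.33 (mean 11.29 ± 0.04 SD, n = 3), at 0.5 h 11.31, 11.20 and 11.30, and at 1 h 11.16, 11.28 and 11.26. These 3 times overlapped. At 4 h it read 11.49, 11.37 and 11.46 (11.44 ± 0.06) and at 8 h 11.39, 11.36 and 11.34 (11.37 ± 0.02), and both sets of arrays lay above all 0 h arrays. At 12 h the values were 11.33, 11.31 and 11.26 (11.30 ± 0.04), back inside the range at 0 h. On each array it was at percentile 98.4 or above.

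As log2 differences from 0 h, the mean of 15279078 was higher by 0.33 ± 0.38 (SE from the model) at 0.5 h, by 1.25 ± 0.38 at 1 h and by 1.52 ± 0.38 at 4 h, which are 1.26-fold, 2.37-fold and 2.86-fold. It was higher by 2.72 ± 0.38 at 8 h (6.59-fold) and by 3.06 ± 0.38 at 12 h (8.35-fold). The 4 h value rested in part on replicate 1 of that time, and without that array it was 0.99. The 0.5 h value ran from 0.11 to 0.53 when 1 array was left out. Among all 27558 probe sets, 174 had a larger increase at 1 h and 72 at 4 h. That number was 2 at 8 h and 1 at 12 h. The middle 90% of all probe sets lay between -0.45 and 0.46 at 8 h.

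For 15279082 the log2 differences from 0 h were -0.01 ± 0.07 at 0.5 h and -0.05 ± 0.07 at 1 h. At 4 h it was 0.15 ± 0.07 (1.11-fold), at 8 h 0.08 ± 0.07, and by 12 h 0.01 ± 0.07. At 12 h 1644 probe sets of the array lay as close to their 0 h mean or closer.

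**Figure D2:**
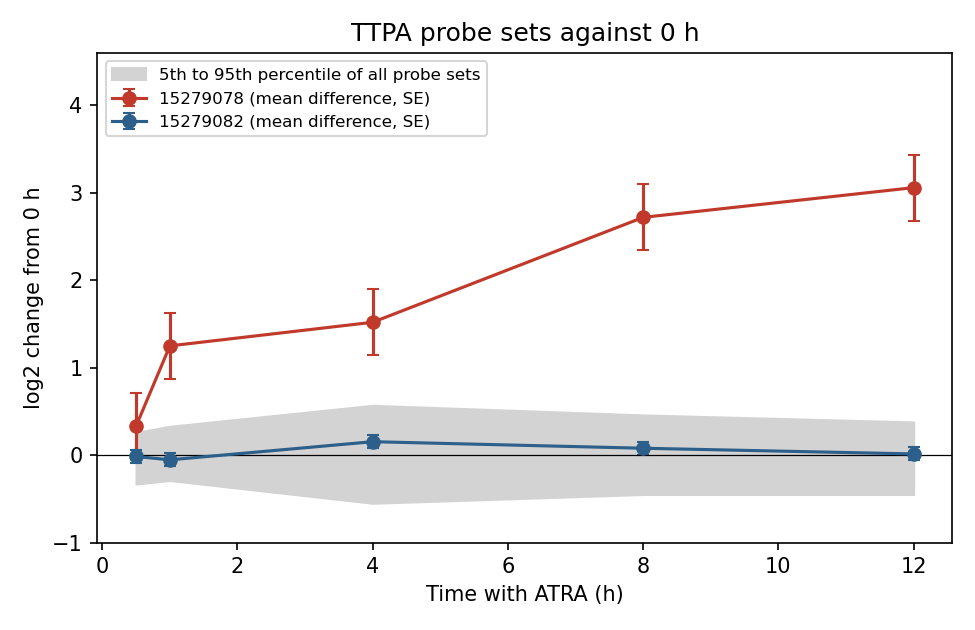
Log2 change from 0 h of the TTPA probe sets by hours with ATRA, as differences of means of 3 arrays with the SE from the model, over a grey band from the 5th to the 95th percentile of all probe sets. At 0.5 h 15279078 lies just above the band, whose upper edge is 0.26, and it reaches 3.06 at 12 h, while 15279082 stays within it at every time.

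Between later times, 15279078 was higher by 0.27 ± 0.38 from 1 to 4 h, 1.20 ± 0.38 from 4 to 8 h and 0.34 ± 0.38 from 8 to 12 h. The largest of these 3 steps was from 4 to 8 h. As a share of its log2 change at 12 h, it stood at 40.7% at 1 h, 49.6% at 4 h and 88.9% at 8 h. Without replicate 1 of 4 h, the share at that time was 32.2%, below that at 1 h, and the difference of 4 h minus 1 h was -0.26 in place of 0.27. CYP26A1, a cytochrome P450 enzyme that breaks down retinoic acid and a standard reporter of its action, stood at 71.9%, 79.4% and 93.4% of its own 12 h change at those times. DHRS3, which reduces retinaldehyde to retinol, stood at 31.1%, 69.8% and 90.5%. The differences between these time courses were not tested.

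The spread between replicates also differed. The model's residual SD was 0.462 for 15279078, at percentile 96.3 of all probe sets, and 0.091 for 15279082, at percentile 0.4. The median over all probe sets was 0.183. For 15279078 the array numbered replicate 1 was the highest of its time at all 6 times and replicate 3 the lowest at all 6. Replicate 1 stood 0.22 to 1.07 above the mean of its time and replicate 3 stood between -0.57 and -0.25 from it. Deviations from the time means of the arrays numbered 1 also went together across the whole array, with correlations of 0.11 to 0.51 over all probe sets. For the arrays numbered 2 and 3 these correlations were -0.05 to 0.38 and 0.13 to 0.34. With all 6 arrays of replicate 1 left out, the changes of 15279078 were 0.42, 1.16, 1.18, 2.72 and 3.13 at the 5 later times. The 8 h value was thus as large without them. For 15279082 replicate 1 was highest at 4 times and lowest at 1.

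On each array the bright probe set exceeded the dim one, and the mean of this difference shrank with time. The difference of 15279082 minus 15279078 was 6.89 ± 0.45 (SD, n = 3) at 0 h and 6.55 ± 0.24 at 0.5 h. It was 5.59 ± 0.61 at 1 h and 5.53 ± 0.88 at 4 h, then 4.25 ± 0.34 at 8 h and 3.85 ± 0.22 at 12 h. Between 1 and 4 h the arrays did not all go the same way. The difference went from 4.95 to 4.51 in replicate 1, from 5.66 to 5.95 in replicate 2 and from 6.17 to 6.12 in replicate 3. Signals of different probe sets are not on a scale of molecules, so only the change of this difference is read, which was -2.64 at 8 h and -3.05 at 12 h. The highest 12 h value, 4.06, lay below the lowest 0 h value, 6.49. Over the 18 arrays the probe sets correlated at a Pearson r of 0.28 and a Spearman rank correlation of 0.31, and their deviations from the time means at 0.08. These are descriptions of arrays that share their time points.

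Among genes with several probe sets, TTPA stood at the end of the distribution. Of 902 such genes, 217 had probe sets with identical values on all arrays and 685 could be compared. The gap between the largest and the smallest change of a gene's probe sets at 8 h had a median of 0.09, an upper quartile of 0.20 and a 95th percentile of 0.47 on the log2 scale. TTPA's was 2.64, and the next largest was 1.21. No gene had a larger gap than TTPA at 1, 4, 8 or 12 h, while 41 genes did at 0.5 h, where its gap was 0.35. With a change of at least 2-fold in one probe set at 8 h and of less than 1.1-fold in another, TTPA was the sole gene of the 685. This disagreement is what chose the gene.

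**Figure D3:**
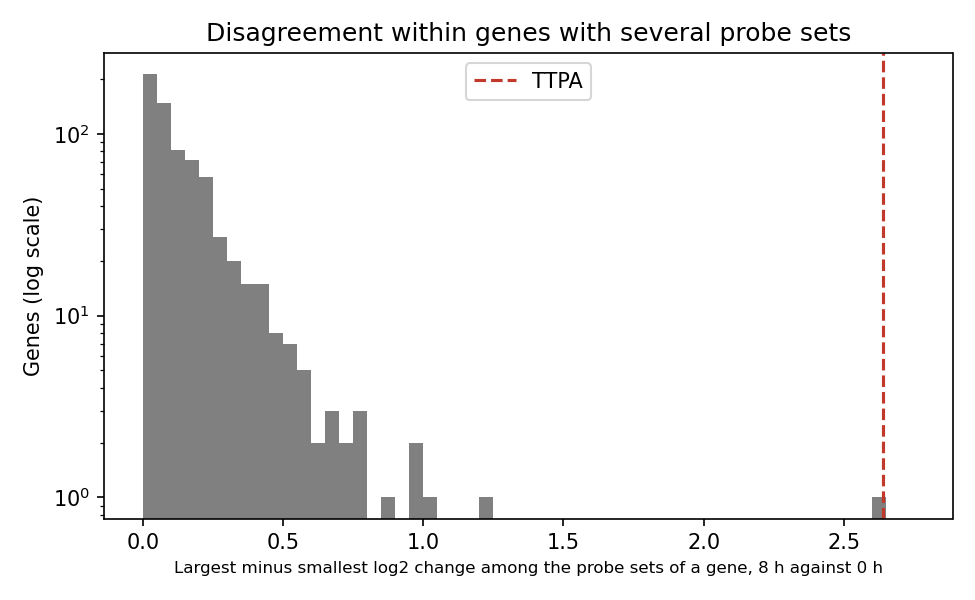
Number of genes (log scale) by the gap between the largest and smallest log2 change of their probe sets at 8 h against 0 h, over 685 genes with several probe sets. The dashed line marks TTPA at 2.64, and the next gene is at 1.21.

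The genes whose 18 values were most like each probe set were different ones. For 15279078 the highest correlations were those of TNS1, a focal adhesion protein (Pearson r = 0.951 over 18 arrays), SLC16A10, a transporter of aromatic amino acids (0.947), and P2RY1, a receptor for ADP (0.935). SLC51B, a subunit of the basolateral organic solute and bile acid transporter (0.933), and SLC25A15, the mitochondrial ornithine carrier (0.930), followed. Their log2 changes at 12 h were 0.85 for TNS1, 1.12 for SLC16A10, 1.84 for P2RY1, 1.68 for SLC51B and 1.61 for SLC25A15, each smaller than that of 15279078. At 4 h P2RY1 was at 1.57, beside the 1.52 of the TTPA probe set, and TNS1 at 0.29.

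For 15279082 they were RIPK1, a kinase of tumor necrosis factor receptor signalling (0.877), ARHGAP35, a GTPase-activating protein (0.863), and ZDHHC5, a palmitoyltransferase (0.854). PANX1, a membrane channel protein (0.850), and GABPB1, a subunit of a transcription factor of nuclear-encoded mitochondrial genes (0.838), followed. All 5 had their largest change from 0 h at 4 h, from 0.17 for ARHGAP35 to 0.76 for PANX1. At 12 h they were between -0.03 for RIPK1 and 0.19 for PANX1. The genes were chosen for their correlation, so their changes are descriptions too. The probe sets of GABPB1 differed by 0.27 in their change at 4 h, and the values here are those of 1 of them.

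**Figure D4:**
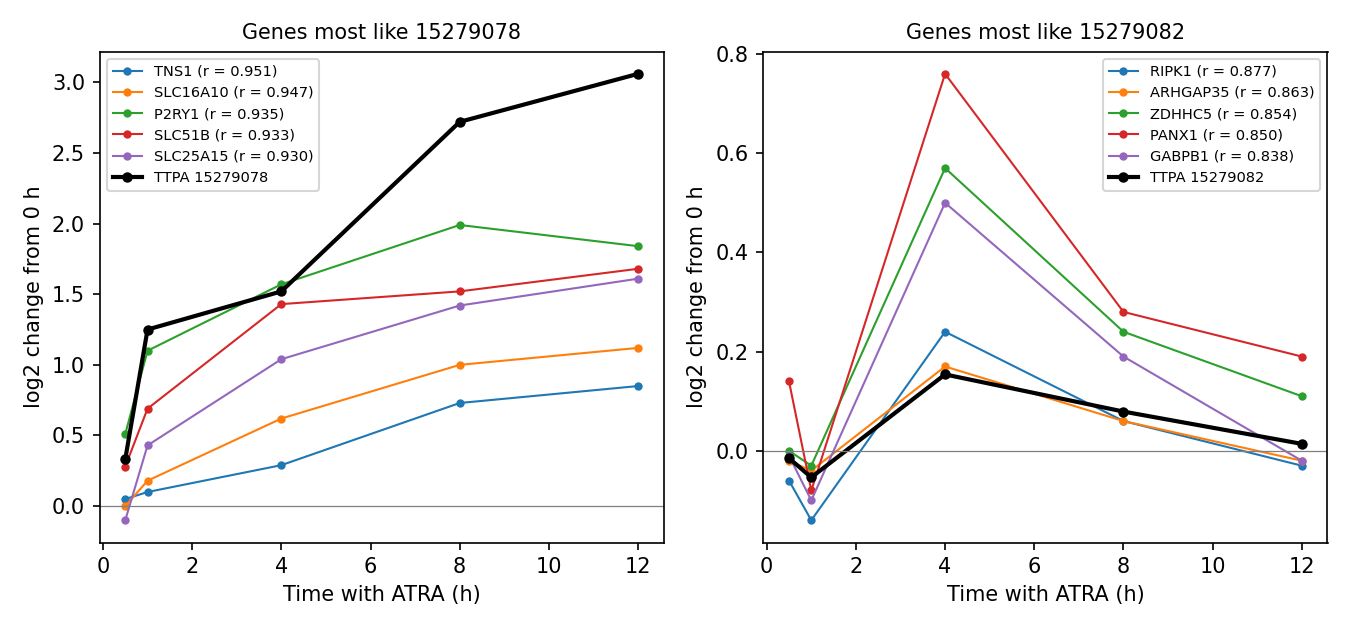
Log2 change from 0 h by hours with ATRA for the 5 named genes with the highest Pearson r over 18 arrays to each TTPA probe set (black; the vertical axes differ). Genes like 15279078 are highest at 8 or 12 h, and genes like 15279082 are highest at 4 h, at 0.17 to 0.76.

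The tests concern other genes, in lists of the vitamin E pathway. A gene was represented by its probe set with the highest mean and called at an adjusted p under 0.05 in limma, with Benjamini-Hochberg adjustment over all probe sets. The share of all probe sets called was 0.232% at 0.5 h, 0.766% at 1 h and 12.9% at 4 h, then 6.1% at 8 h and 2.64% at 12 h. Of all 12361 named genes, 7.89% were called higher and 8.53% lower at 4 h, 4.33% and 3.58% at 8 h, and 1.52% and 1.75% at 12 h. The shares were 0.202% and 0.0243% at 0.5 h and 0.777% and 0.105% at 1 h. With only the 6 arrays of a comparison in the fit, 19 of 42 calls on list genes were lost. Among the genes named below these were the 4 h calls of LRP2, GDAP2, CAT, PIP5K1C, PPARA, HIF1A, NR1H4 (adjusted p = 0.059) and ARNT (0.0519). They also included the 12 h call of CAT, and every 8 h call but those of ACSL4, CYP26A1 and DHRS3.

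Of 14 measured genes with a CRAL-TRIO domain 1 was higher and 1 lower at 4 h, and 1 was higher at 8 h and at 12 h. The list median of the log2 change was 0.0331, 0.0101 and -0.115 at those times. Of all named genes, 7.89% were higher and 8.53% lower at 4 h, and 4.33% and 1.52% higher at 8 and 12 h. After quantile normalization, or with dim probe sets left out, 3 of the 14 were higher and 1 lower at 4 h. The added genes were PRUNE2, at 0.78 ± 0.26 (limma adjusted p = 0.0609, and 0.0479 and 0.046 in those fits), and MOSPD2, at 0.31 (0.0486 and 0.0383). None was called at 0.5 or 1 h in limma, and 0 had an unadjusted p under 0.05 at either time.

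The gene that was higher at all 3 late times was TTPAL, the TTPA-like protein, whose ligand preference is less well known. Its log2 signal was 6.96, 7.08 and 7.10 at 0 h and 7.60, 8.00 and 7.89 at 4 h. Later it was 7.49, 8.00 and 7.88 at 8 h, and 7.75, 7.66 and 7.84 at 12 h. No late array overlapped those at 0 h. It rose by 0.78 ± 0.14 at 4 h (1.72-fold, limma adjusted p = 0.00134), 0.74 ± 0.14 at 8 h (adjusted p = 0.00473) and 0.70 ± 0.14 at 12 h (adjusted p = 0.0133). The 12 h call did not hold when the first or second 0 h replicate was left out (adjusted p = 0.0527 and 0.0538), or the third 12 h replicate (0.0721). At 1 h it was at 0.16 ± 0.14 (adjusted p = 1).

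GDAP2, a CRAL-TRIO protein of unclear ligand, fell by 0.39 ± 0.10 at 4 h (limma adjusted p = 0.0142), a call that did not hold without 0 h replicate 1 (0.0573), 4 h replicate 2 (0.0788) or 4 h replicate 3 (0.0541). SEC14L2, which also binds tocopherols and squalene, was at -0.11 ± 0.13 at 4 h and 0.01 ± 0.13 at 8 h (adjusted p = 0.972), and was called at no time.

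Of 16 measured genes of vitamin E and lipid transport, 0 were higher and 3 lower at 4 h, and again 0 and 3 at 8 h. All named genes stood at 7.89% and 8.53% at 4 h, and at 4.33% and 3.58% at 8 h. The list medians were 0.00281 and -0.09, against 0.00575 and -0.00617 over all named genes. ABCA1, the exporter that loads lipid and alpha-tocopherol onto apolipoprotein A-I, read 9.40, 9.53 and 9.66 at 0 h and 8.73, 8.52 and 8.63 at 4 h. Those ranges did not overlap, and it fell by 0.90 ± 0.15 at 4 h (limma adjusted p = 0.000753) and by 0.73 ± 0.15 at 8 h (adjusted p = 0.00748). At 12 h it was at -0.36 ± 0.15 (adjusted p = 0.252), with values of 9.08, 9.17 and 9.26.

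VLDLR, the receptor for very low density lipoprotein, read 10.53, 10.36 and 10.51 at 0 h and 9.74, 9.35 and 9.11 at 4 h. It fell by 1.07 ± 0.13 at 4 h (limma adjusted p = 0.000102) and by 0.58 ± 0.13 at 8 h (adjusted p = 0.0165). The 8 h call did not hold without 0 h replicate 1 (0.0602), 0 h replicate 3 (0.0602) or 8 h replicate 3 (0.0712). LRP2, or megalin, the tubule receptor that takes up filtered carrier proteins, fell by 0.41 ± 0.10 at 4 h (adjusted p = 0.0117) and 0.45 ± 0.10 at 8 h (adjusted p = 0.013). Its 4 h call did not hold without 0 h replicate 2 (0.0544) or 4 h replicate 3 (0.0504). Its 8 h call did not hold without 0 h replicate 2 (0.0689), 0 h replicate 3 (0.0533) or 8 h replicate 3 (0.0662).

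At 0.5, 1 and 12 h none of the 16 passed in limma, and 1, 0 and 5 had an unadjusted p under 0.05. SCARB1, a receptor for high density lipoprotein that also takes up vitamin E, was at 0.53 ± 0.19 at 4 h (adjusted p = 0.082) and 0.53 ± 0.19 at 8 h (adjusted p = 0.119). Its other probe set, 15223879, gave 0.50 ± 0.16 (adjusted p = 0.0472) and 0.54 ± 0.16 (adjusted p = 0.0518), so the probe sets of this gene gave like values on either side of the threshold at 4 h.

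Vitamin E stops chain reactions of lipid peroxidation, and 21 genes of lipid peroxide defence were measured. At 4 h 2 were higher and 2 lower, and at 8 and 12 h 1 was higher and 1 lower. All named genes stood at 7.89% and 8.53% at 4 h, 4.33% and 3.58% at 8 h, and 1.52% and 1.75% at 12 h. None of the 21 passed at 0.5 or 1 h in limma, and 0 had an unadjusted p under 0.05 at either time. ACSL4, which puts polyunsaturated fatty acids into phospholipids and so supplies the substrate of peroxidation, read 9.08, 8.79 and 8.77 at 0 h and 9.82, 9.83 and 9.87 at 8 h. It rose by 0.84 ± 0.15 at 4 h (limma adjusted p = 0.00127), 0.96 ± 0.15 at 8 h (adjusted p = 0.00149) and 0.72 ± 0.15 at 12 h (adjusted p = 0.0155). The 12 h call did not hold without 0 h replicate 2 (0.0853), 0 h replicate 3 (0.0701), 12 h replicate 1 (0.0563) or 12 h replicate 3 (0.0827).

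GCLM, the modifier subunit of the enzyme that limits glutathione synthesis, read 10.63, 10.72 and 10.69 at 0 h and 9.78, 9.55 and 9.46 at 4 h. It fell by 1.09 ± 0.13 at 4 h (limma adjusted p = 6.53e-05). At 8 h it read 10.12, 10.53 and 10.32 and was not called. TXNRD1, a thioredoxin reductase, rose by 0.57 ± 0.09 at 4 h (adjusted p = 0.000798). CAT, the catalase of peroxisomes, fell by 0.26 ± 0.08 at 4 h (adjusted p = 0.0382) and 0.35 ± 0.08 at 8 h (adjusted p = 0.0162) and at 12 h (adjusted p = 0.0269). Those 3 calls were lost in 8, 3 and 6 of 18 fits without 1 array, each time among them those without 0 h replicate 2 or 0 h replicate 3.

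Of 8 measured enzymes that make or remove the phosphoinositides for which TTPA exchanges its ligand, 1 was higher and 1 lower at 4 h. At that time 7.89% of all named genes were higher and 8.53% lower. SYNJ2, a phosphoinositide 5-phosphatase, read 6.40, 6.46 and 6.43 at 0 h and 7.25, 7.47 and 7.65 at 4 h, a rise of 1.03 ± 0.11 (limma adjusted p = 4.11e-05). By 12 h it read 6.26, 6.51 and 6.40, which overlaps 0 h. PIP5K1C, a kinase that makes phosphatidylinositol 4,5-bisphosphate, fell by 0.42 ± 0.10 at 4 h (adjusted p = 0.0141), a call that did not hold without 0 h replicate 3 (0.0698), 4 h replicate 2 (0.0636) or 4 h replicate 3 (0.0827). At 0.5, 1, 8 and 12 h none of the 8 passed in limma, and 0, 1, 2 and 1 had an unadjusted p under 0.05.

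**Figure D5:**
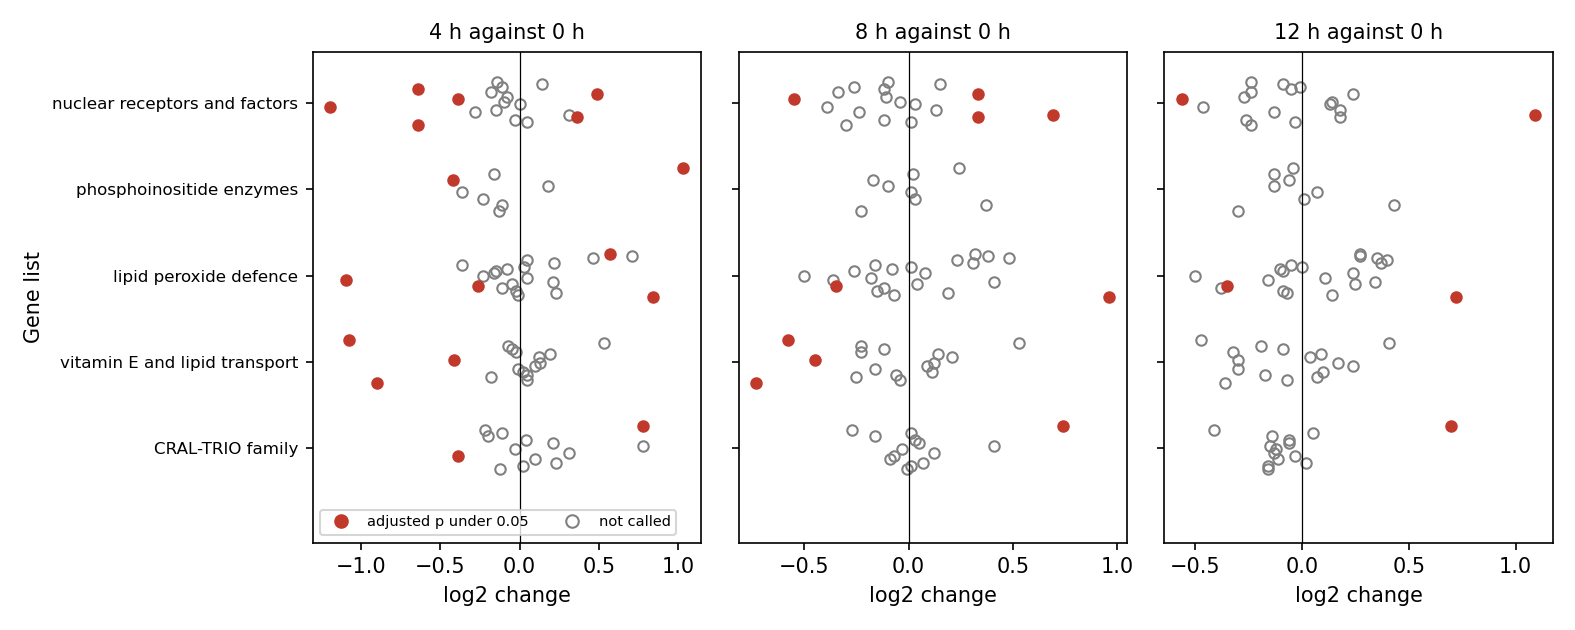
Log2 change from 0 h of every measured gene of 5 lists at 4, 8 and 12 h with ATRA, each point 1 gene; filled points have an adjusted p under 0.05. In the CRAL-TRIO family 1 gene, TTPAL at 0.78, 0.74 and 0.70, is filled on the right at all 3 times.

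Measured were 18 nuclear receptors and factors that bind lipids or have been tied to liver and oxygen responses. Of these, 2 were higher and 4 lower at 4 h, 3 and 1 at 8 h, and 1 and 1 at 12 h. After quantile normalization the 8 h counts were 1 and 1. All named genes stood at 7.89% and 8.53% at 4 h, 4.33% and 3.58% at 8 h, and 1.52% and 1.75% at 12 h. None of the 18 passed at 0.5 or 1 h in limma, and 1 and 0 had an unadjusted p under 0.05. PPARA, a receptor for fatty acids, read 8.50, 8.44 and 8.50 at 0 h and 8.15, 7.85 and 7.81 at 8 h. It fell by 0.39 ± 0.11 at 4 h (limma adjusted p = 0.0242), 0.55 ± 0.11 at 8 h (adjusted p = 0.0073) and 0.56 ± 0.11 at 12 h (adjusted p = 0.0123). The 4 h call was lost in 5 of 18 fits without 1 array, those without any 1 of the 0 h arrays or without 4 h replicate 2 or 3. The 12 h call did not hold without 12 h replicate 1 (0.0614) or 12 h replicate 2 (0.0578).

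HNF4A, a transcription factor of liver and proximal tubule, read 8.16, 8.30 and 8.41 at 0 h and 9.08, 9.56 and 9.51 at 12 h, a rise of 1.09 ± 0.17 (limma adjusted p = 0.00306). Its rise of 0.69 ± 0.17 at 8 h (adjusted p = 0.0265) was lost in 5 of 18 such fits, those without any 1 of the 0 h arrays or without 8 h replicate 2 or 3. NR1H4, the bile acid receptor, fell by 1.19 ± 0.24 at 4 h (adjusted p = 0.00417) and ARNT, the partner of hypoxia-inducible factors, by 0.64 ± 0.12 (adjusted p = 0.00161). RORA fell by 0.64 ± 0.16 at 4 h (adjusted p = 0.0164), a call lost in 4 of 18 such fits. The 2 called higher at 4 h were RARA, a retinoic acid receptor, and HIF1A. They rose by 0.49 ± 0.09 (limma adjusted p = 0.00191) and 0.36 ± 0.09 (0.0122). The HIF1A call did not hold without 4 h replicate 3 (0.0677). Their 8 h calls, both at 0.33 (adjusted p = 0.0426 and 0.0379), were lost in 12 and 8 of 18 such fits. RXRA, the partner of retinoic acid receptors, was at -0.26 ± 0.17 at 8 h (adjusted p = 0.482).

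Over the whole time course, the moderated F test of limma called 15.7% of all probe sets and 19.2% of named genes. It called 2 of 14 genes of the CRAL-TRIO family, 3 of 16 of vitamin E and lipid transport, 7 of 21 of lipid peroxide defence, 2 of 8 phosphoinositide enzymes and 7 of 18 nuclear receptors and factors. These are 14.3%, 18.8%, 33.3%, 25% and 38.9% of those lists. The 2 of the CRAL-TRIO family were TTPAL (F test adjusted p = 0.000844) and MOSPD2 (0.0471), while GDAP2 was at 0.0749.

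CYP26A1 and DHRS3, both known targets of retinoic acid, were measured in the same arrays. CYP26A1 read 8.42, 8.42 and 8.84 at 0 h and 10.69, 10.93 and 10.83 at 12 h, and DHRS3 read 7.82, 7.91 and 7.87 and then 10.90, 11.18 and 10.99. The log2 change at 12 h was 2.26 ± 0.16 for CYP26A1 (limma adjusted p = 3e-06) and 3.16 ± 0.14 for DHRS3 (adjusted p = 1.15e-08), beside the 3.06 of 15279078. Both were called from 1 h on. Of the 7 measured retinoid reference genes 2 were higher at 1 h and 4 h, and 2 were higher and 1 lower at 8 and 12 h; the lower one was STRA6, a receptor for retinol-binding protein. Its fall of 0.39 at 8 h (adjusted p = 0.031) did not hold in 5 of 18 fits without 1 array, those without any 1 of the 0 h arrays or without 8 h replicate 2 or 3, and its fall of 0.65 at 12 h (adjusted p = 0.0028) held in all 18.

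Of the 3 genes on each side of TTPA in the annotation, GGH alone had a probe set under its symbol; the others were not analysed here. GGH, which trims polyglutamate from folates, read 9.86, 9.76 and 9.72 at 0 h, 10.12, 9.79 and 9.66 at 8 h and 10.06, 9.95 and 9.88 at 12 h. It was at 0.07 ± 0.11 at 8 h (limma adjusted p = 0.802) and 0.18 ± 0.11 at 12 h (adjusted p = 0.494), and its F test gave an adjusted p of 0.414. Its 12 h arrays lay above all 0 h arrays by little, and the share of all genes with such a separation was not computed.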

How the data were processed

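The authors deposited 1 log2 signal per probe set and array, for 27558 probe sets on 18 Affymetrix porcine arrays hybridized with biotin-labeled RNA, per the labels. Transcriptome Analysis Console 2.0.0.9 was used, per the submitters' processing notes; how signals were summarized and normalized, and the genome build, are not given in the sources used here. The deposited values entered the model unfiltered. Of the probe sets, 13323 had 1 gene symbol, 357 several and 13878 none in the platform annotation; 12925 of the first were found in RefSeq by Entrez identifier. A model with 1 mean per time was fitted to all arrays with limma 3.58.1 in R 4.3.3 (12 residual and 3.34 prior degrees of freedom), two-sided, with Benjamini-Hochberg adjustment over all probe sets. The median SE of a difference was 0.149; 3 arrays per time limit the precision. Labels call the replicates biological, without saying whether cultures were separate, so p-values measure the spread between these samples. The method was tested on simulated data with independent noise on each array. That test does not cover deviations shared by arrays of the same replicate number.

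TTPA and the gene lists were chosen with earlier results of these data known. Named were all TTPA probe sets, the 5 genes most correlated with each, up to 4 called members per list with 9 genes given whatever their values (GPX4, 1 of these, had no probe set under its symbol), and measured neighbours of TTPA. RARA and HIF1A were added as the nuclear receptors and factors called higher at 4 h. Alternatives were other normalizations, a filter on dim probe sets, another variance model, the replicate number as a block, only the 6 arrays compared, means over probe sets and leaving out each array. Sequences of the gene or probes were not used here.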

Additional observations from a re-analysis of the deposited data

How the results depend on the processing

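Under all 125 alternative values, the change of 15279082 minus that of 15279078 moved by less than a pooled SD. This SD was pooled over the replicates of the times compared. The count is not read as stability, since most settings could not pass that limit. Leaving out 1 of 3 arrays shifts a mean by less than this SD in any data. Median centring cancels within an array. The block, the other variance model, the dim filter and the fits of only the arrays compared keep the same means. Only quantile normalization and leaving out all replicate 1 arrays could have passed it. Without 1 array the difference in change ran from -0.55 to -0.10 at 0.5 h, -1.59 to -0.98 at 1 h and -1.66 to -0.86 at 4 h. It then ran from -2.85 to -2.40 at 8 h and -3.25 to -2.80 at 12 h. Without 1 array, the change of 15279078 ran from 0.96 to 1.52 at 1 h and 0.99 to 1.80 at 4 h, then 2.50 to 2.92 at 8 h and 2.84 to 3.26 at 12 h. Averaging the TTPA probe sets gave 0.16, 0.60, 0.84, 1.40 and 1.54 at the 5 later times, a course that neither probe set shows. Without 1 array, 2113 (without 4 h replicate 3) to 4644 probe sets passed at 4 h and 703 to 2064 at 8 h. At 12 h it was 234 to 972; the lowest values at 8 and 12 h were without 0 h replicate 2. The F test then called 1 to 3 CRAL-TRIO genes.

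The replicate numbers were not taken to pair the arrays, since correlations of same-numbered deviations fell to -0.05. Their medians were 0.40, 0.14 and 0.24 for numbers 1, 2 and 3, and 17 of 18 arrays correlated best with their own number. This is a hint from the data that the numbers mark a shared source. In the fit that took the replicate number for a block, the SE of 15279078 was 0.21 in place of 0.38, and 322 probe sets passed at 1 h, 3191 at 8 h and 1943 at 12 h in place of 211, 1681 and 728. The block's F test called 4 CRAL-TRIO, 11 peroxide defence and 6 phosphoinositide genes in place of 2, 7 and 2; at single times it lost none of the 42 calls on list genes and added 18. Of these, 12 were in lipid peroxide defence, where 4 were higher and 3 lower at 4 h, 5 and 2 at 8 h and 4 and 2 at 12 h. In the CRAL-TRIO family 3 were higher and 1 lower at 4 h, with PRUNE2 at an adjusted p of 0.00133, and 1 and 3 among phosphoinositide enzymes. With only the 6 arrays compared, 1378 passed at 4 h and 229 at 8 h in place of 3568 and 1681, and 19 of the 42 list calls were lost, among them TTPAL and ABCA1 at 8 h (adjusted p = 0.077 and 0.0821). Fewer samples entered those fits. Median centring left 1 CRAL-TRIO gene in the F test. Without all replicate 1 arrays, an alternative added after the data were seen, it called 4 CRAL-TRIO and 4 phosphoinositide genes. The share of all genes called by the F test under the alternatives, or by the block at 4 h, is not given here. The list counts under the alternatives are therefore not read as results about the lists. Causes were not tested.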
